A study of Mus musculus with 12 samples.

Results

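The genes described here build, modify and export sterols and fatty acids. The 36 genes were chosen by function, with earlier results of these data known, among 55487 features in the deposited table. Their counts beside the share of all features are therefore a description. Fads2 was selected on its measured fall after stimulation, so its values in every comparison are given without a test. All 36 passed the filter on low values and were among the 12364 features tested. They were measured by RNA-seq in mouse natural killer (NK) cells, lymphocytes that kill infected or transformed cells and secrete interferon gamma. The mice were of strain B6.129S4-Ifngtm3.1Lky/J with the genotype given as mut/mut. In this strain the interferon gamma gene carries a yellow fluorescent protein (YFP) reporter. Every group was of this genotype and was labelled IL-15 primed, written as HD IL-15 in the titles. The first group was left unstimulated, and the labels give no time for it, so effects of the antibody and of time in culture cannot be told apart. The other groups received anti-NK1.1, an antibody to an activating receptor of the NK cell surface, for 6 h and were separated as reporter-negative (YFP-) and reporter-positive (YFP+) cells. Each of the 3 groups held 4 libraries, labelled f2, m2, m3 and m4, and values below are listed in that order. The labels do not give the age of the mice or say whether libraries came from separate animals, so the p-values measure only the spread between these libraries, which may be technical.

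Sterol and fatty acid synthesis start from cytosolic acetyl-CoA. The transcription factors SREBP1 and SREBP2, encoded by Srebf1 and Srebf2, switch on most of the enzymes when membrane sterol is low: the escort protein SCAP carries them from the endoplasmic reticulum to the Golgi for cleavage, and the INSIG proteins hold SCAP back when sterol is plentiful. Sterol excess also acts through the liver X receptors (LXR), which bind oxidised sterols and raise export genes such as Abca1 and Abcg1. Lymphocytes draw on these pathways for new membrane when they grow and divide.

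The libraries held 32.1 to 54.2 M reads (M, mega), where 3 reads correspond to 0.0553 to 0.0933 CPM (read counts scaled to a library total of 1 M). Features of ribosomal RNA took 27.4 to 35.3% of reads in unstimulated libraries, 15.9 to 30.3% in YFP- and 13.7 to 29.8% in YFP+ libraries. Here and below they include a few features grouped with them by name, such as the protein-coding gene Lars2. All 10 NK cell markers on the list were detected, with summed levels of 13569 to 16241, 9576 to 12111 and 10145 to 14094 CPM in the 3 groups. Most of each sum came from Gzma, Prf1 and Nkg7, and the markers did not move together. By group mean, Klrb1c stood at 308, 75.3 and 6.5 CPM, and Ncr1, Klrd1, Eomes, Itga2 and Gzma were also lower in both stimulated groups. Klrk1, Tbx21 and Prf1 were higher in both, and Nkg7 was lower in YFP- and higher in YFP+ cells. The 6 T cell markers summed to 45.8 to 106 CPM in unstimulated libraries, 39.7 to 62.7 in YFP- and 22.6 to 45.9 in YFP+ libraries, nearly all from Cd3d and Cd3g, while the other 4, Cd4, Cd8a, Cd8b1 and Cd3e, had mean levels below 1 CPM. The summed levels were at most 4.19 CPM for 5 B cell markers, 2.84 for 7 macrophage and monocyte markers, 1.5 for 4 neutrophil markers and 0.326 for 4 red cell markers. The 4 dendritic cell markers summed to 0.853 to 1.97 CPM in unstimulated libraries, 4.03 to 6.3 in YFP- and 1.44 to 2.19 in YFP+ libraries, nearly all from Xcr1, and the other 3 had mean levels below 1 CPM. The part of the differences in NK cell markers, Cd3d, Cd3g and Xcr1 in the results below was not tested. For ribosomal RNA, a fit with totals taken without its features is given with the scaling below. Any other part it had was not tested. In bulk RNA, fewer cells that express a gene cannot be told apart from less of its RNA in each cell.

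By group mean, most of the 36 genes were at their highest level in unstimulated cells, lower in stimulated YFP- cells and lower again in YFP+ cells. Their summed level was 2277, 2303, 2391 and 1806 CPM in the unstimulated libraries. It was 928, 1014, 749 and 772 CPM in the YFP- libraries and 846, 788, 605 and 605 CPM in the YFP+ libraries, so the sums of the stimulated and unstimulated groups did not overlap. In limma, with a Benjamini-Hochberg adjusted p under 0.05 as the threshold, 27 genes were lower and 0 higher in YFP- than in unstimulated cells. Of all features tested, 20.9% were lower and 30.2% higher in this comparison. Against unstimulated cells, 29 genes were lower and 0 higher in YFP+ cells, where 33.3% of all features were lower and 27.5% higher. Without Fads2 the counts were 26 and 28 of 35 genes. The median difference over the 36 genes was -1.27 on the log2 scale for YFP- and -2.04 for YFP+ cells, where the median over all features tested was 0.14 and -0.03. In the comparison of YFP+ with YFP- cells, 15 genes were lower and 0 higher, against 18.5% and 3.28% of all features. The median was -0.47 over the genes and -0.19 over all features. Leaving out Fads2, 14 of 35 genes were lower in this comparison.

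**Figure D1:**
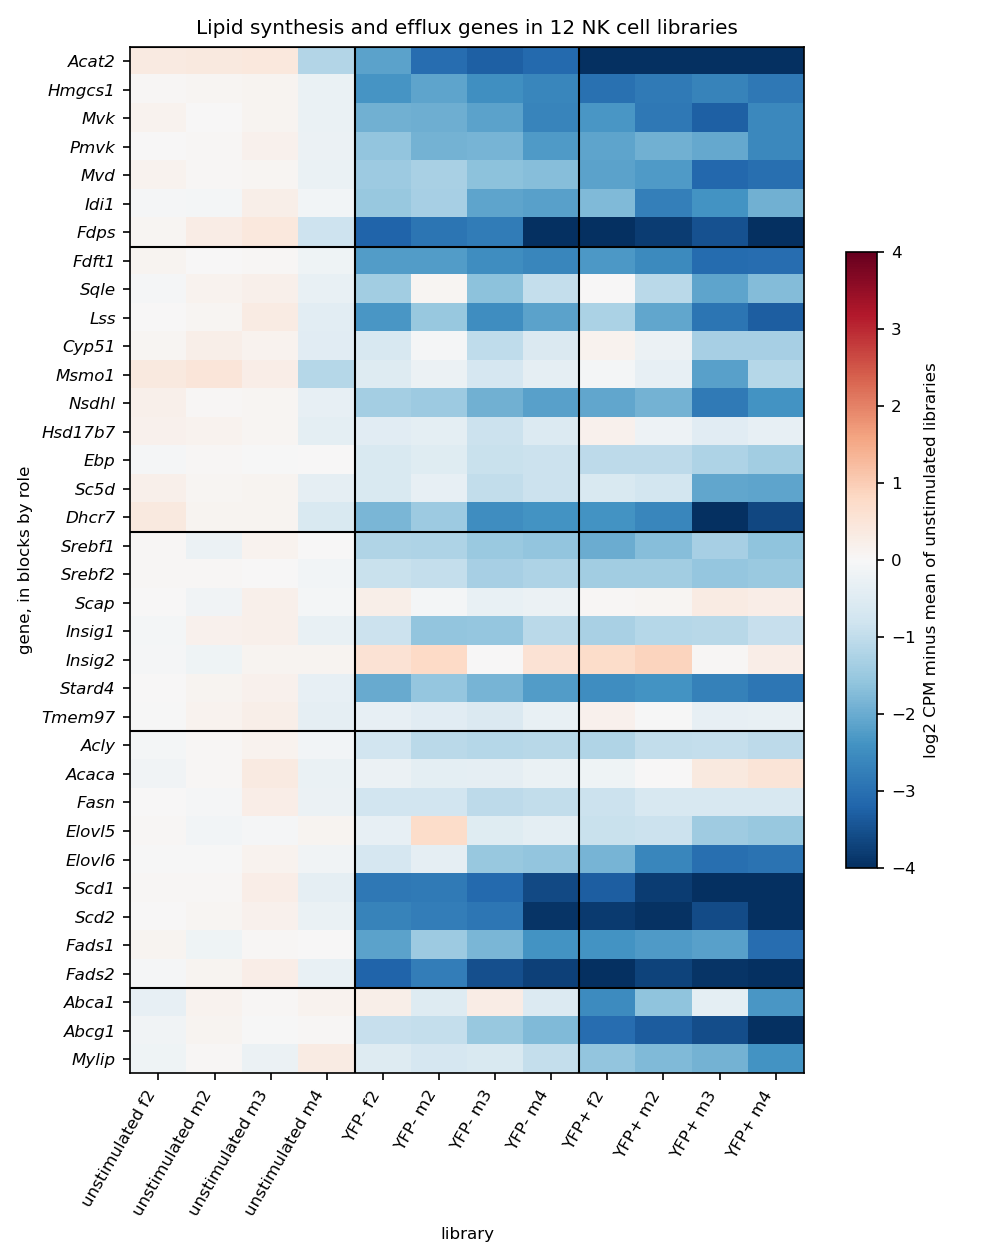
Each row is a gene, in blocks by role, and each column a library; colour is the log2 CPM minus the mean of the 4 unstimulated libraries, and the colour scale ends at 4 in either direction. The stimulated libraries are mostly blue, with the mevalonate arm and the desaturases darkest, while Scap, Insig2, Acaca and Tmem97 stay pale.

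All 7 genes of the mevalonate arm, which turns acetyl-CoA into the isoprenoid farnesyl diphosphate, were lower in both stimulated groups, and no stimulated library reached the lowest unstimulated library for any of them. Of all features, 21.7% lay wholly below the unstimulated group in YFP- and 30.8% in YFP+ libraries. Acat2, the cytosolic thiolase that makes acetoacetyl-CoA (chr17:12942890-12960747, minus strand, GRCm38), stood at 97.7, 98.6, 100 and 33.5 CPM in unstimulated libraries. It fell to 17, 9.14, 7.74 and 8.67 CPM in YFP- and to 4.64, 4.57, 1.33 and 4.14 CPM in YFP+ libraries. The difference from unstimulated cells was -2.90 ± 0.44 (log2, SE) for YFP- (limma, adjusted p = 0.00012) and -4.51 ± 0.44 for YFP+ cells (adjusted p = 1.1e-06), and the YFP+ value was the most negative of the 36. Unstimulated library m4 was well below the other unstimulated libraries and YFP+ library m3 well below the other YFP+ libraries. Hmgcs1, the synthase of the next step, was at 70.2, 73.2, 74.8 and 57.6 CPM before stimulation, 13.4, 16, 12.4 and 11.3 CPM in YFP- and 8.69, 9.72, 10.8 and 9.36 CPM in YFP+ cells. Its replicates lay close together in every group, and the differences were -2.38 ± 0.14 for YFP- (adjusted p = 4.6e-08) and -2.83 ± 0.14 for YFP+ (adjusted p = 3.5e-09).

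The kinases and the decarboxylase that follow also fell in both stimulated groups. Mvk, mevalonate kinase, was at 52.8, 48.3, 52 and 39.7 CPM in unstimulated libraries, 12.6, 12.2, 10.9 and 7.71 in YFP- and 9.46, 6.58, 5 and 8.03 in YFP+ libraries. Its log2 difference from unstimulated cells was -2.16 ± 0.21 for YFP- and -2.76 ± 0.21 for YFP+ cells. Pmvk, phosphomevalonate kinase, went from 115, 119, 129 and 97.6 CPM to 38, 31.1, 31.6 and 23.9 CPM in YFP- and 26.3, 30.2, 27.4 and 19.1 CPM in YFP+ cells. For both kinases the YFP- and YFP+ libraries overlapped. Mvd, the decarboxylase that yields isopentenyl diphosphate, was at 129, 120, 123 and 95.7 CPM in unstimulated libraries, 42.2, 47.3, 37.2 and 35.3 in YFP- and 26.3, 24.3, 13.3 and 14.2 in YFP+ libraries. Every YFP+ library was below every YFP- library for Mvd. Idi1, which isomerises isopentenyl diphosphate, stood at 10.7, 10.5, 13.2 and 10.4 CPM, then 3.88, 4.44, 2.58 and 2.47 CPM in YFP- and 3.29, 1.66, 2.13 and 2.96 CPM in YFP+ cells. Fdps, farnesyl diphosphate synthase, started at 12.6, 14.7, 15.9 and 6.66 CPM and was near 1 CPM afterwards, at 1.26, 1.56, 1.68 and 0.693 CPM in YFP- and 0.736, 0.848, 1.05 and 0.56 CPM in YFP+ cells. This was a difference of -3.25 ± 0.33 and -3.90 ± 0.33 (adjusted p = 4.9e-06 and 3.4e-07), the largest of the arm for YFP- cells.

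**Figure D2:**
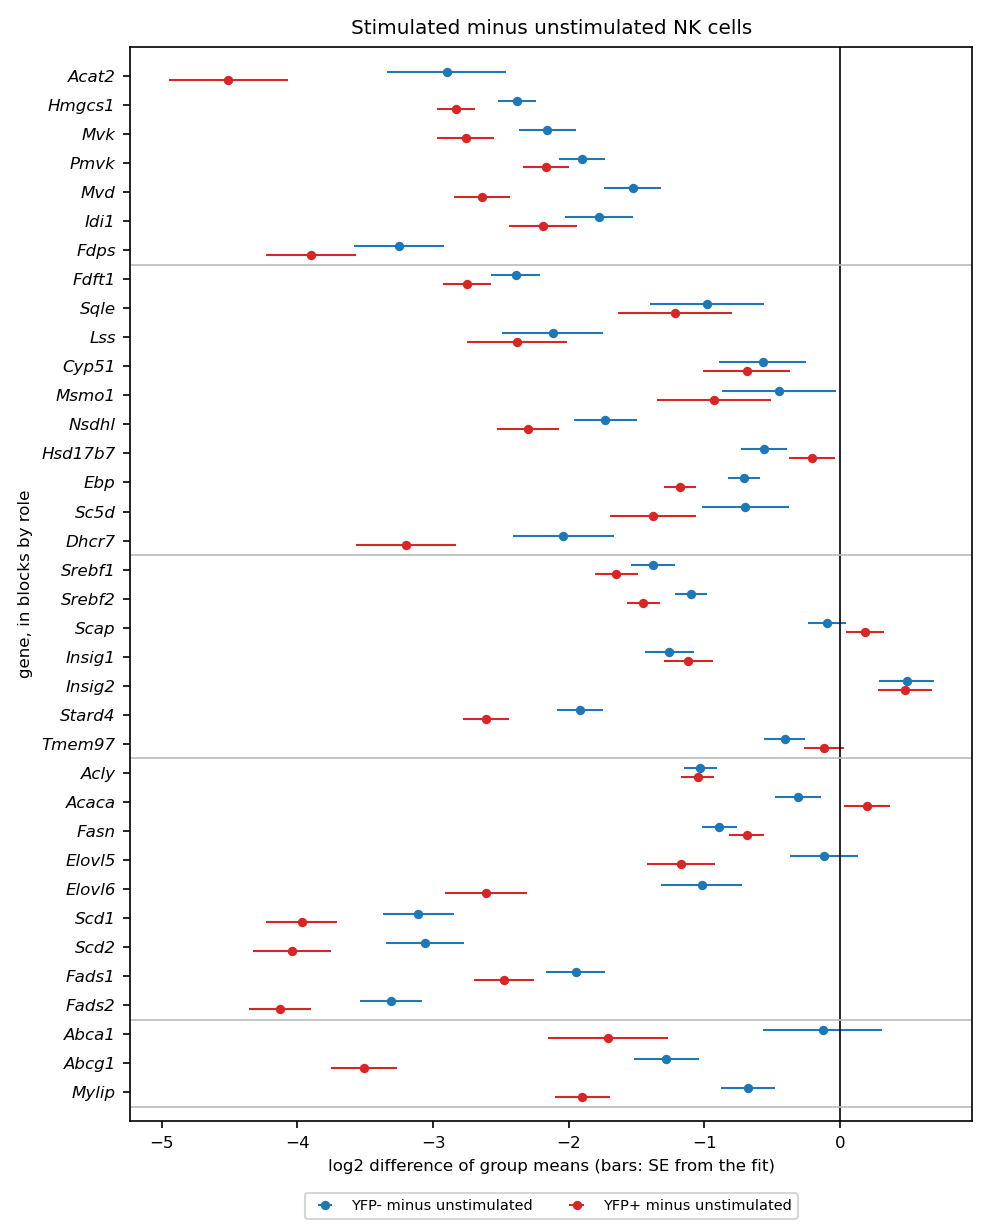
Points are log2 differences of group means from unstimulated cells for YFP- (blue) and YFP+ (red) libraries, with the SE of the fit as bars and genes in blocks by role. In most rows red lies left of blue; Scap, Insig2, Acaca and Tmem97 lie near or right of 0 in at least 1 comparison.

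Of the 10 enzymes from squalene to cholesterol, in YFP- cells 6 were lower than in unstimulated cells and in YFP+ cells 7, with medians of -0.85 and -1.30. Fdft1, squalene synthase, behaved like the mevalonate arm. Its levels were 174, 161, 163 and 142 CPM in unstimulated libraries, 34, 34, 28.7 and 25.9 in YFP- and 32.3, 27, 18.7 and 19.3 in YFP+ libraries, differences of -2.39 ± 0.18 and -2.75 ± 0.18 from unstimulated cells (adjusted p = 2.8e-07 and 2.6e-08). Lss, which closes the sterol rings to lanosterol, fell from 26.4, 27.1, 32.2 and 19.4 CPM to 5.17, 9.12, 4.58 and 5.83 CPM in YFP- and 10.8, 6.16, 3.43 and 2.64 CPM in YFP+ cells. Nsdhl, which helps strip methyl groups from the ring, fell from 70.9, 64.8, 65.8 and 49.6 CPM to 24.1, 22.8, 16.4 and 13.8 CPM in YFP- and 14.8, 16.6, 8.7 and 11.8 CPM in YFP+ cells. For Lss and Nsdhl the stimulated groups overlapped each other and lay wholly below the unstimulated group. Dhcr7, the reductase of the last step, was at 48.4, 39.5, 40 and 24.2 CPM in unstimulated libraries, 10.4, 13.5, 6.61 and 6.97 in YFP- and 7.09, 6.05, 2.04 and 2.92 in YFP+ libraries. Its difference was -2.04 ± 0.37 for YFP- (adjusted p = 0.00051) and -3.20 ± 0.37 for YFP+ cells (adjusted p = 6.0e-06). Ebp, a sterol isomerase, fell less, from 166, 179, 170 and 176 CPM to 113, 123, 93.5 and 95.5 CPM in YFP- and 83.2, 84.1, 73.5 and 65.2 CPM in YFP+ cells. The 3 groups of Ebp libraries did not overlap, and the differences from unstimulated cells were -0.71 ± 0.12 and -1.18 ± 0.12 (adjusted p = 0.00033 and 2.0e-06).

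Sqle, squalene epoxidase, a rate-limiting step of the pathway, was uneven among stimulated libraries. It was at 33.3, 38, 39.1 and 27.9 CPM in unstimulated cells, 13, 35.8, 11 and 17.6 CPM in YFP- and 34.8, 16.4, 8.01 and 10.2 CPM in YFP+ cells. YFP- library m2 and YFP+ library f2 were thus at unstimulated levels and the other 6 stimulated libraries below them. The difference from unstimulated cells was -0.98 ± 0.42 for YFP- (limma, adjusted p = 0.065) and -1.22 ± 0.42 for YFP+ cells (adjusted p = 0.022). Without YFP- library m2, a setting added after the values were seen, the YFP- difference was -1.33 and passed (adjusted p = 0.015). In planned settings it passed without label m2 (adjusted p = 0.044) and without YFP+ library m3 (adjusted p = 0.039). It also passed with a block for the library label (adjusted p = 0.041), after median centring (adjusted p = 0.019) and with totals without ribosomal RNA features (adjusted p = 0.016). Without YFP+ library m3 the YFP+ difference was -0.93 and did not pass (adjusted p = 0.06). The YFP+ difference also missed without label m3 or m4 (adjusted p = 0.11 and 0.096). Cyp51, which removes a methyl group from lanosterol, showed the same scatter, with means of 69.3 ± 13.4 CPM in unstimulated libraries, 47.4 ± 13.7 in YFP- and 46.9 ± 24 in YFP+ libraries (SD, n = 4). Its YFP+ libraries were at 75.4, 58.1, 27.2 and 26.9 CPM, and neither stimulated group passed against unstimulated cells (adjusted p = 0.15 and 0.076). With totals taken without ribosomal RNA features both passed, YFP- at -0.75 (adjusted p = 0.027) and YFP+ at -0.88 (adjusted p = 0.0092). Msmo1, the methylsterol oxidase, averaged 83.4 ± 33.3, 56.2 ± 7.19 and 46.2 ± 25 CPM in the 3 groups. Without unstimulated library m4, which was at 34.5 CPM where the others were at 91.3 to 107, the YFP+ difference moved from -0.93 (adjusted p = 0.072) to -1.31 (adjusted p = 0.01), again in a setting added after the values were seen. In planned settings the YFP+ difference passed without label m4 (-1.24, adjusted p = 0.038) and with a block for the library label (-0.93, adjusted p = 0.034). With totals without ribosomal RNA features it passed as well (-1.12, adjusted p = 0.016). Sc5d, a sterol desaturase, went from 62.1, 57.2, 58.3 and 42.6 CPM to 35.4, 43.1, 27.6 and 30.3 CPM in YFP- and 35.5, 32.9, 12.8 and 12.7 CPM in YFP+ cells, lower than unstimulated in YFP+ cells by a log2 difference of -1.38 ± 0.32 (adjusted p = 0.0018). YFP+ libraries f2 and m2 were above m3 and m4 for all 10 genes from squalene to cholesterol. The share of reads on ribosomal RNA features was 13.7% and 16.3% in YFP+ f2 and m2 and 29.8% and 23.1% in m3 and m4, and its part in these values was not tested. Hsd17b7, a ketoreductase of the same demethylation steps, had means of 26.7 ± 4.44, 18.1 ± 2.54 and 23.2 ± 4.47 CPM. It was lower in YFP- than in unstimulated cells (-0.56 ± 0.17, adjusted p = 0.016), a call that was lost without label m2 (adjusted p = 0.063) and without label m3 (adjusted p = 0.084).

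Among the genes of sterol sensing, both SREBP genes fell, while the escort gene Scap and Insig2 were not called in either direction. Srebf2, encoding the factor that mainly drives sterol enzymes, was at 134, 136, 130 and 121 CPM in unstimulated libraries, 70.7, 67.2, 52.3 and 55.3 in YFP- and 49.4, 49.9, 44.6 and 46.7 in YFP+ libraries. The differences from unstimulated cells were -1.10 ± 0.12 and -1.45 ± 0.12 (limma, adjusted p = 7.3e-06 and 2.2e-07), with no overlap between groups. Srebf1, whose product drives mainly fatty acid enzymes, went from 42.9, 35.4, 45.9 and 41.8 CPM to 18, 17.5, 14.7 and 13.8 CPM in YFP- and 10.5, 12.6, 16.5 and 13.6 CPM in YFP+ cells. Here the stimulated groups overlapped each other. Scap averaged 19 ± 1.99, 17.8 ± 3.01 and 21.5 ± 2.02 CPM in the 3 groups, and no difference from unstimulated cells passed (adjusted p = 0.58 and 0.31). Insig1, itself a target of SREBP, fell from 25.4, 29.7, 30.9 and 21.6 CPM to 14.6, 8.92, 9.19 and 12.6 CPM in YFP- and 10.8, 12, 12.4 and 14.2 CPM in YFP+ cells (-1.26 ± 0.18 and -1.12 ± 0.18, adjusted p = 7.9e-05 and 0.00012).

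Insig2 was the gene of the 36 with the most positive difference from unstimulated cells. Its means were 19.2 ± 1.72 CPM in unstimulated libraries, 27.3 ± 5.85 in YFP- and 27.4 ± 7.27 in YFP+ libraries, differences of 0.49 ± 0.20 and 0.48 ± 0.20 that did not pass (limma, adjusted p = 0.06 and 0.055). The stimulated libraries of label m3, at 19.3 and 19.5 CPM, lay within the unstimulated range of 17 to 20.6 CPM, and the other 6 stimulated libraries lay above it. Without YFP+ library m3 both differences passed, at 0.49 (adjusted p = 0.033) and 0.63 (adjusted p = 0.011). Stard4, a carrier that moves sterol between membranes, fell from 90.9, 97.4, 102 and 71.8 CPM to 22.1, 30.6, 24.6 and 18.9 CPM in YFP- and 16.2, 16.9, 13.9 and 12.2 CPM in YFP+ cells, and its 3 groups did not overlap. Its differences from unstimulated cells were -1.92 ± 0.17 and -2.61 ± 0.17 (adjusted p = 1.6e-06 and 3.4e-08). Tmem97, a sterol-binding membrane protein, averaged 82.5 ± 13.8, 61.5 ± 5.65 and 75.7 ± 12.5 CPM. It was lower in YFP- than in unstimulated cells (-0.41 ± 0.15, adjusted p = 0.037), a call lost without YFP- library m2 (adjusted p = 0.073) or without label f2, m2 or m3 (adjusted p = 0.065, 0.18 and 0.18), and did not pass in YFP+ cells (adjusted p = 0.51). With totals taken without ribosomal RNA features, Tmem97 was called lower in YFP+ cells (-0.31, adjusted p = 0.031).

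In fatty acid metabolism, 7 of 9 genes were lower in YFP- and 8 of 9 in YFP+ than in unstimulated cells, counts that include Fads2. Acly, which supplies cytosolic acetyl-CoA from citrate, went from 64, 69.6, 74.5 and 62.2 CPM to 39.3, 31.7, 30.6 and 31.5 CPM in YFP- and 29, 34.2, 34.5 and 32.4 CPM in YFP+ cells. That was about the same fall in both stimulated groups, -1.03 ± 0.12 and -1.05 ± 0.12. Acaca, the carboxylase that makes malonyl-CoA and commits carbon to fatty acids, averaged 18.2 ± 3.47, 14.6 ± 0.772 and 21 ± 4.55 CPM and did not differ from unstimulated cells past the threshold (adjusted p = 0.16 and 0.34). With totals taken without ribosomal RNA features, Acaca was called lower in YFP- cells (-0.49, adjusted p = 0.048). Fasn, fatty acid synthase, averaged 81.6 ± 11.3, 44 ± 4.41 and 50.2 ± 3.71 CPM, lower than unstimulated by -0.89 ± 0.13 in YFP- (adjusted p = 7.7e-05) and -0.69 ± 0.13 in YFP+ cells (adjusted p = 0.00034). The desaturases Scd1 and Scd2 introduce the first double bond into saturated chains. Scd2 (chr19:44293674-44306864, plus strand) was at 270, 280, 302 and 222 CPM in unstimulated libraries, 42.1, 39.4, 36.2 and 17.5 in YFP- and 18.9, 17.4, 22.1 and 9.43 in YFP+ libraries, differences of -3.06 ± 0.29 and -4.04 ± 0.29 (adjusted p = 2.4e-06 and 6.8e-08). Scd1, its neighbour on the opposite strand (chr19:44394455-44407879), fell from 31.9, 31.8, 36.4 and 23.6 CPM to 4.15, 4.3, 3.5 and 2.49 CPM in YFP- and 3.07, 2.18, 1.44 and 1.46 CPM in YFP+ cells. The lowest unstimulated library was still above the highest stimulated library by a wide margin for both genes.

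Fads1 and Fads2 encode the desaturases that turn dietary essential fatty acids into longer polyunsaturated ones, and they also lie near each other on chromosome 19. Fads2 (chr19:10062765-10101746, minus strand) was at 39.3, 43.6, 48.7 and 33.2 CPM in unstimulated libraries, 4.38, 5.96, 3.55 and 3.04 CPM in YFP- and 1.82, 3.15, 2.65 and 1.9 CPM in YFP+ libraries. Its level was 9.93-fold lower in YFP- and 17.5-fold lower in YFP+ than in unstimulated cells, which is the fall it was selected on. Fads1 (chr19:10182888-10196877, plus strand), which was not so selected, was at 19.9, 16.5, 19 and 18.4 CPM, then 4.13, 6.69, 5.23 and 3.53 CPM in YFP- and 3.49, 3.8, 4.03 and 2.21 CPM in YFP+ cells. Its differences from unstimulated cells were -1.95 ± 0.22 and -2.48 ± 0.22 (limma, adjusted p = 1.2e-05 and 5.9e-07). The elongases differed from each other. Elovl6, which lengthens saturated chains, stood at 20.4, 20.3, 22.6 and 18.7 CPM in unstimulated libraries, 12.9, 16, 7.17 and 6.91 in YFP- and 5.68, 3.32, 2.54 and 2.61 in YFP+ libraries. It was stepwise lower, by -1.02 ± 0.30 in YFP- (adjusted p = 0.011) and -2.61 ± 0.30 in YFP+ cells (adjusted p = 4.6e-06), although the YFP- call was lost without label m3 or m4 (adjusted p = 0.066 and 0.064). Elovl5, which lengthens polyunsaturated chains, was at 27, 24.4, 25.3 and 27.9 CPM in unstimulated libraries, 20.7, 43.5, 18.7 and 20 in YFP- and 14, 14.3, 9.81 and 9.12 in YFP+ libraries. It was lower than unstimulated in YFP+ cells (-1.17 ± 0.25, adjusted p = 0.00093) and not past the threshold in YFP- cells (adjusted p = 0.72), where library m2 was the highest of all 12.

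**Figure D3:**
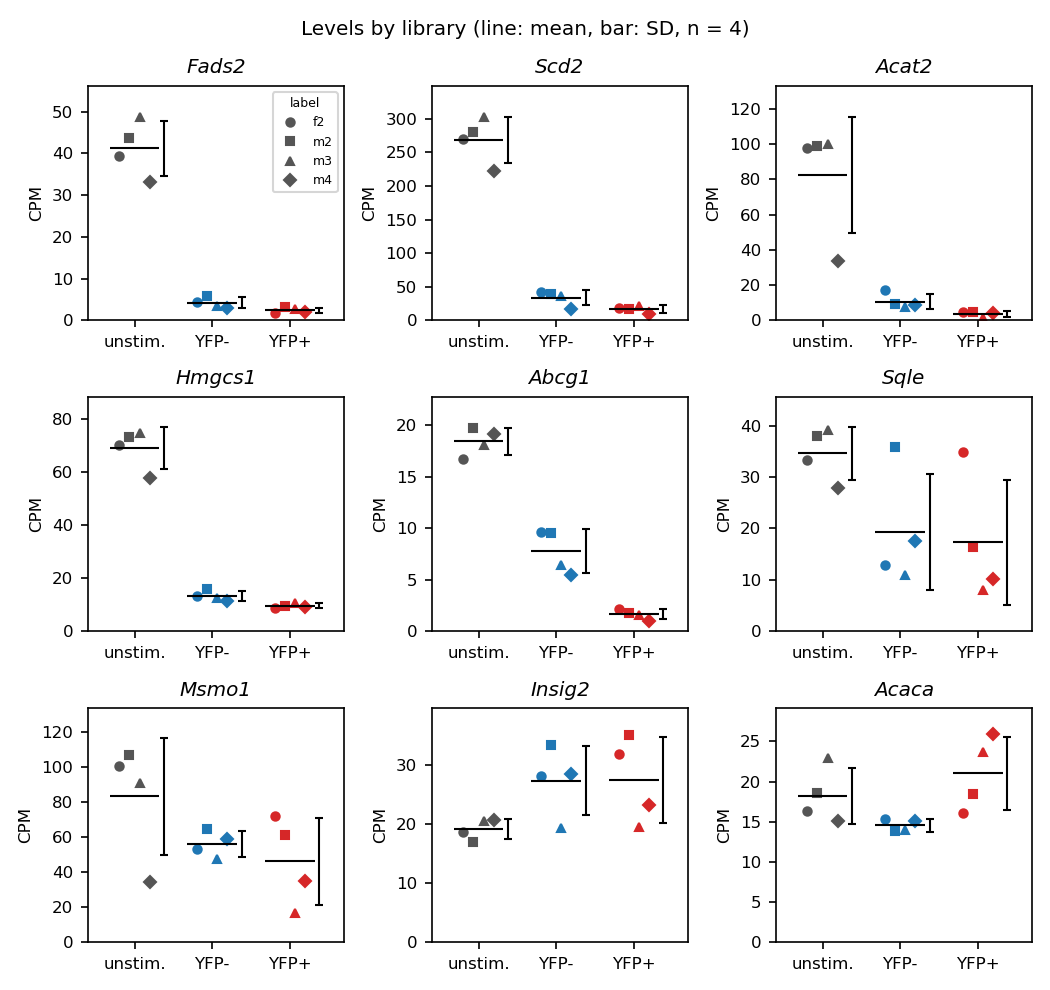
Levels in CPM by library for 9 genes, with 1 marker shape per library label, a line at the group mean and a bar for the SD (n = 4). Fads2, Scd2, Acat2, Hmgcs1 and Abcg1 are separated between unstimulated and stimulated libraries, Sqle is scattered in both stimulated groups and Msmo1 in unstimulated and YFP+ libraries, and Insig2 and Acaca are not lower in YFP+ cells.

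The 3 genes of sterol efflux and the LXR response were all lower in YFP+ than in YFP- cells. Abcg1 (chr17:31057675-31117988, plus strand), a transporter that hands cholesterol to lipoproteins, was at 16.7, 19.7, 18.1 and 19.1 CPM in unstimulated libraries, 9.66, 9.57, 6.47 and 5.44 in YFP- and 2.21, 1.83, 1.57 and 1.03 in YFP+ libraries. The 3 groups did not overlap. The difference between YFP+ and YFP- cells was -2.23 ± 0.24 (limma, adjusted p = 4.5e-05), a 4.7-fold lower level and the most negative of the 36 in this comparison. Mylip, a ubiquitin ligase that marks lipoprotein receptors for degradation and is an LXR target, was at 7.16, 8.34, 6.9 and 10.2 CPM, then 5.67, 5.07, 5.32 and 4.18 CPM in YFP- and 2.72, 2.34, 2.18 and 1.52 CPM in YFP+ cells. Its groups did not overlap either, with -1.22 ± 0.20 between YFP+ and YFP- cells (adjusted p = 0.00085). Abca1, the other efflux transporter, was at most 1.22 CPM in every library. It stood at 0.787, 1.08, 1.03 and 1.08 CPM in unstimulated libraries, 1.15, 0.689, 1.22 and 0.673 in YFP- and 0.163, 0.313, 0.746 and 0.187 in YFP+ libraries, and YFP+ library m3 overlapped the YFP- group. Abca1 was lower in YFP+ than in YFP- cells by -1.58 ± 0.44 (adjusted p = 0.02), a call lost without label f2, m2 or m4 (adjusted p = 0.13, 0.073 and 0.093). Against unstimulated cells, Abcg1 and Mylip were lower in both stimulated groups while Abca1 passed in YFP+ cells (-1.71 ± 0.44, adjusted p = 0.004) and not in YFP- cells (-0.13 ± 0.44, adjusted p = 0.82). The Mylip call in YFP- cells, -0.68 ± 0.20 (adjusted p = 0.013), was lost without label m2 (adjusted p = 0.071) or m4 (adjusted p = 0.059).

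Within the stimulated cells, reporter-positive cells were lower than reporter-negative cells in 15 of the 36 genes, or 14 of 35 without Fads2. By role, 3 of 7 lay in the mevalonate arm, 2 of 10 from squalene to cholesterol and 2 of 7 in sterol sensing and handling. Fatty acid metabolism held 5 of 9, with Fads2 among them, and efflux 3 of 3. With 18.5% of all features lower, the 2 of 10 was near the share of all features. For 10 of the 36 genes every YFP+ library was below every YFP- library, as for 17.8% of all features, and for Acaca every YFP+ library was above, as for 4.31%. Mvd was lower by -1.11 ± 0.21 (limma, adjusted p = 0.0024), Elovl5 by -1.06 ± 0.25 (adjusted p = 0.0075) and Elovl6 by -1.58 ± 0.30 (adjusted p = 0.0019). These 3, with Abcg1 and Mylip, were the 5 genes called under every setting run. The other calls, leaving Fads2 aside, were smaller or less even. Acat2 was lower by -1.62 ± 0.44 (adjusted p = 0.018), Dhcr7 by -1.16 ± 0.37 (adjusted p = 0.04), Scd2 by -0.98 ± 0.29 (adjusted p = 0.027) and Scd1 by -0.86 ± 0.26 (adjusted p = 0.029). Fads2 differed by -0.82 ± 0.23, given without a test because its stimulated libraries were part of its selection. Stard4, Ebp, Hmgcs1 and Srebf2 differed by -0.69, -0.47, -0.45 and -0.36, and Abca1 is given above. Without YFP- library m2 alone, a setting added after the values were seen, Hmgcs1, Dhcr7, Srebf2, Scd1 and Scd2 no longer passed. Leaving Fads2 aside, 9 genes were still called lower in that setting. Without YFP+ library m3, Dhcr7 (-0.84, adjusted p = 0.097), Srebf2 (-0.32, adjusted p = 0.092) and Scd1 (-0.72, adjusted p = 0.072) no longer passed. With all 3 libraries of a label left out, Acat2 missed without f2 or m2, Ebp without f2, m2 or m4 and Stard4 without m2 or m3. Their adjusted p values were 0.053 to 0.074. Hmgcs1 missed without f2, m2 or m4, Scd2 without f2, m2 or m3, Scd1 without m2 or m3, Dhcr7 without m2, m3 or m4 and Srebf2 without any of the 4, at 0.056 to 0.2. All these differences stayed negative, some larger and some smaller than with every library. Acat2 was at -1.53 without f2 and -1.82 without m2, and Ebp at -0.48, -0.44 and -0.45 without f2, m2 and m4. These fits held fewer libraries, and the part of that in the misses was not tested.

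The scaling of the libraries moved this comparison. With the deposited scaling to library totals, the median feature was lower in YFP+ than in YFP- cells by a log2 value of -0.19, and after trimmed-mean scaling by -0.03. After trimmed-mean scaling 9 of the 36 genes were lower and 5 higher in YFP+ cells, where 13.5% of all features were lower and 8.24% higher. The 5 higher genes were Acaca (0.66, adjusted p = 0.0095), Hsd17b7 (0.50, adjusted p = 0.048), Tmem97 (0.44, adjusted p = 0.045), Scap (0.43, adjusted p = 0.032) and Fasn (0.35, adjusted p = 0.033), all positive but not called with the deposited scaling. Acaca was at 15.3, 13.8, 14 and 15.1 CPM in YFP- and 16.1, 18.4, 23.7 and 25.9 CPM in YFP+ libraries. The calls of Hmgcs1, Ebp, Dhcr7, Srebf2, Scd1 and Scd2 were lost under this scaling, with differences of -0.30, -0.32, -1.01, -0.20, -0.71 and -0.83. Against unstimulated cells, 27 genes were lower in YFP- and 29 in YFP+ cells under both scalings, and Insig2 was called higher in YFP+ cells after trimmed-mean scaling (0.61, adjusted p = 0.014). With totals taken without ribosomal RNA features, 31 genes were lower in YFP- and 33 in YFP+ than in unstimulated cells, Fads2 included. Their medians were -1.45 and -2.23, beside -0.06 and -0.23 over all features tested. Between YFP+ and YFP- cells 17 genes were then lower and 0 higher. The median was -0.48 over the genes and -0.20 over all features.

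**Figure D4:**
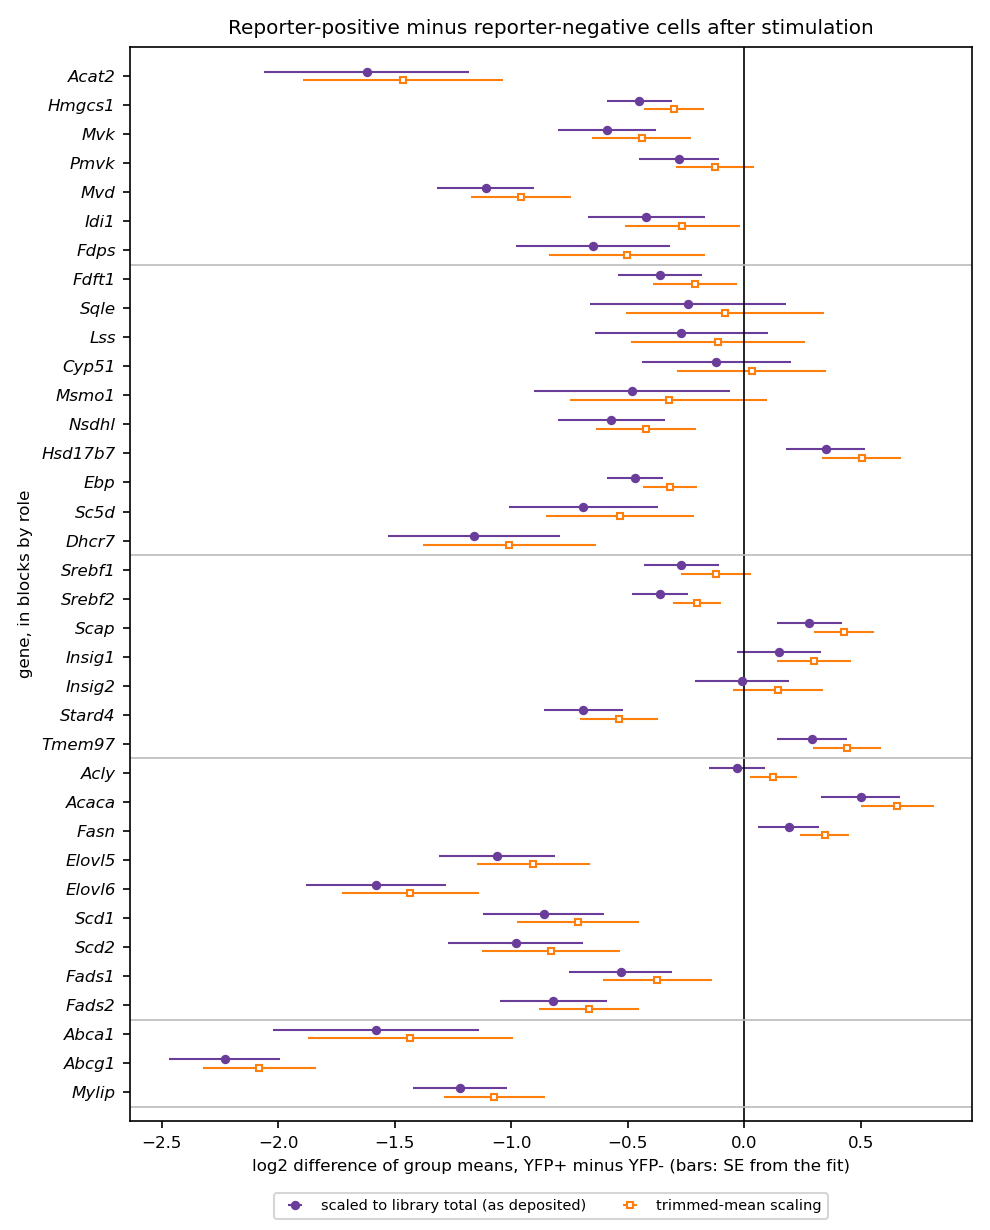
Points are log2 differences between YFP+ and YFP- libraries with the SE of the fit, with the deposited scaling (filled) and after trimmed-mean scaling (open). Efflux genes, Acat2, Elovl6, Dhcr7, Mvd and Elovl5 lie farthest left under both scalings, and Acaca lies farthest right.

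Compared per length of exon, the genes spanned a wide range. In unstimulated cells Ebp was highest at 74.8 CPM per kilobase of exon, followed by Pmvk at 67.2, Mvd at 62.8 and Tmem97 at 60, and Abca1 was lowest at 0.0959. Scd2 was next at 49.1, and was at 6.18 in YFP- and 3.11 in YFP+ cells on this scale. Tmem97 was the highest of the 36 in YFP+ cells at 55.1, above Ebp at 33.1. Scd1 was below Scd2 per length in each group mean, at 6.32, 0.738 and 0.416, and Fads1 was below Fads2 in each group mean, with Fads2 at 12.5, 1.28 and 0.722 and Fads1 at 3.83, 1.02 and 0.703.

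Of 98 other genes of these pathways, listed by function, 82 were tested. In YFP- against unstimulated cells 27 were higher (32.9%) and 23 lower (28%), beside 30.2% and 20.9% of all features. In YFP+ against unstimulated cells 26 were higher (31.7%) and 31 lower (37.8%), beside 27.5% and 33.3%. Between YFP+ and YFP- cells 8 were higher (9.76%) and 11 lower (13.4%), beside 3.28% and 18.5%. The counts by list below are read against the same shares. Of 11 further sterol and isoprenoid enzymes, 4 were higher and 5 lower in YFP+ than in unstimulated cells. Lbr, a sterol reductase of the inner nuclear membrane, fell from 67.9 ± 8.01 to 15.4 ± 2.47 CPM (limma, adjusted p = 6.5e-08). Nus1, a subunit of the enzyme that makes dolichol from the same isoprenoids, rose from 16.1 ± 1.44 to 47.5 ± 9.32 CPM (adjusted p = 1.0e-06). Of 9 genes of SREBP processing and degradation, 5 were higher and 1 lower in YFP+ than in unstimulated cells, all by less than 1 on the log2 scale. Mbtps2, the protease that makes the second cut in SREBP, was at 3.43 ± 1.14 and 5.32 ± 0.453 CPM (adjusted p = 0.012), and Trim13 was the gene that fell, from 9.86 ± 0.674 to 6.66 ± 0.808 CPM (adjusted p = 0.0061). Of 14 further genes of fatty acid synthesis and elongation, 7 were higher and 4 lower. Acss2, which makes acetyl-CoA from acetate, fell from 15.5 ± 1.55 CPM to 6.25 ± 3.3 in YFP- and 1.46 ± 0.399 in YFP+ cells, while Hacd1, a dehydratase of elongation, rose from 2.42 ± 0.318 to 5.53 ± 0.518 and 12 ± 1.61 CPM. Fads3, a member of the desaturase family of Fads1 and Fads2, rose from 0.891 ± 0.243 to 2.03 ± 0.856 and 4.29 ± 1.17 CPM (adjusted p = 0.014 and 6.2e-05), the opposite direction to Fads1.

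Of 15 genes of acyl-CoA activation and glycerolipid synthesis, 7 were higher and 5 lower in YFP+ than in unstimulated cells. Lpin1, a phosphatidate phosphatase, fell from 40.4 ± 0.632 to 8.54 ± 1.59 CPM (limma, adjusted p = 1.0e-06), and Agpat4, an acyltransferase, rose from 22.7 ± 2.42 to 87.9 ± 28.8 CPM (adjusted p = 3.8e-06). Of 15 genes of sterol uptake, storage, oxysterols and LXR, 1 was higher and 7 were lower. Smpdl3a, a phosphodiesterase known as an LXR target, was at 10.5 ± 3.36, 6.17 ± 1.27 and 1.35 ± 0.108 CPM in unstimulated libraries, YFP- and YFP+ cells. Its difference between YFP+ and YFP- cells was -2.16 ± 0.23 (adjusted p = 3.9e-05), beside -2.23 for Abcg1. Abca7, a lipid transporter, was at 15.4 ± 0.193, 9.3 ± 2.57 and 3 ± 0.843 CPM, lower in YFP+ than in YFP- cells by -1.63 ± 0.21 (adjusted p = 0.00015). Of 18 genes of fatty acid oxidation, 2 were higher and 9 lower in YFP+ than in unstimulated cells. Slc25a20, the mitochondrial carnitine carrier, rose from 23.6 ± 1.38 to 111 ± 13.3 CPM in YFP- and 187 ± 40.9 CPM in YFP+ cells (adjusted p = 2.7e-07 and 7.7e-09), while Cpt1a, which loads fatty acids onto carnitine, was at 11.5 ± 1.37, 7.83 ± 2.12 and 3.23 ± 0.642 CPM.

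Promoter sequence was read from RefSeq (GRCm38.p6) as windows of 250 bases before to 50 bases after a gene start, which were found for 28 of the 36 genes (36 windows). None was found for Fdps, Fdft1, Sqle, Stard4, Scd1, Scd2, Fads1 and Abcg1, so the counts below leave them out. The following 250 bases upstream of a start are shown for a mevalonate gene with tight replicates, for the mevalonate gene called lower in YFP+ than in YFP- cells under every setting run, and for fatty acid synthase, which fell less. Capitals mark the sterol regulatory element core TCACNCCAC and the NF-Y box CCAAT on either strand (ATTGG on the other), and all are written 5′ to 3′ on the strand of the gene.
Hmgcs1 (chr13:119690101-119690350, plus strand): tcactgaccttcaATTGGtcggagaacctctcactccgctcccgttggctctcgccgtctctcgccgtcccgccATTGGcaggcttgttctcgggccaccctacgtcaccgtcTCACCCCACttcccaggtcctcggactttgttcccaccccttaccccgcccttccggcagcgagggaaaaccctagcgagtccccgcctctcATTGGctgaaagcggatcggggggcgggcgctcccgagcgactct
Mvd (chr8:122443423-122443672, minus strand): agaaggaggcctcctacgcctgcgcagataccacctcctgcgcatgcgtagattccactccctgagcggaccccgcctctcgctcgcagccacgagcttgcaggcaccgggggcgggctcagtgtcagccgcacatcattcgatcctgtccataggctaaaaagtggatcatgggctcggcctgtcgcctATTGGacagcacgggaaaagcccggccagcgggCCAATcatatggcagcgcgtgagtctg
Fasn (chr11:120824548-120824797, minus strand): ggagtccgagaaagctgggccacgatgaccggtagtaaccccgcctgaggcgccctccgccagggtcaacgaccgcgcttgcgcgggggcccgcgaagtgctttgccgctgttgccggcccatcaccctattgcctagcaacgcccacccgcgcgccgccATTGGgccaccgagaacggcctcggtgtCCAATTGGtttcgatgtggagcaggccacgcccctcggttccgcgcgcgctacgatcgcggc
The Hmgcs1 sequence holds the element core 137 bases before the start and NF-Y boxes at 237, 176 and 45 bases. Mvd holds NF-Y boxes at 60 and 27 bases and Fasn at 90, 62 and 59 bases, the last pair overlapping. The core TCACNCCAC was in 1 of the 36 windows, that of Hmgcs1, and in 1.24% of all 32851 RefSeq promoter windows. Only exact matches to these letters were counted, so elements with other letters or outside the windows were missed. CCAAT was in 23 of the 36 windows (63.9%) against 37.4% of all windows. The GC box GGGCGG was in 27 of them (75%) against 35.7%, and the E-box CACGTG in 8 (22.2%) against 7.15%. Several windows belong to the same gene, and a match of letters is not a measurement of binding.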

How the data were processed

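RNA-seq was made from 12 libraries, per the labels' protocols from 10 ng of RNA by the SMARTer Ultra Low method, and read as paired ends of 150 bases. The submitters' processing notes name bcl2fastq, STAR 2.7.9a, Subread, featureCounts 2.0.3 and GRCm38. The authors deposited moderated log2 CPM per gene, per the file headers, so values are scaled to library totals and kept no gene length. After 287 repeated lines were dropped, 55487 features remained, of which 55141 were found in GENCODE M21 (GRCm38), the source of positions and exon lengths. The deposited log2 values gave back whole reads, within 0.1 read, for 100% of values with a prior of 0.517 reads, and CPM values and sums printed here are from those reads. The floor of 3 reads covers counting error only, since the labels name no molecular identifiers.

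Features with log2 CPM above 0 in at least 4 libraries were fitted in limma 3.58.1 (R 4.3.3) with 1 coefficient per group and an intensity trend, and adjusted by Benjamini-Hochberg over all features tested. Differences are group means of the deposited log2 CPM. Genes with a log2 difference over 1 in either direction in at least 1 comparison (28 of 36) are given library by library and the rest by group, and of other listed genes the 3 called with the largest YFP+ to unstimulated difference per list could be named. The genes, the lists and the tests were chosen with earlier results of these data known. Alternatives of scaling were trimmed-mean scaling of recovered reads (30% of ratios and 5% of levels trimmed) and median centring. Totals were also taken without 359 features of ribosomal RNA or grouped with it by name, such as Lars2. The other alternatives were a pseudocount of 1 CPM, other filters and thresholds, no trend, a replicate block and left-out libraries. The fit was tested on simulated data. Tables and figures were made in Python 3.11.15 (pandas 2.3.3, numpy 2.4.6, matplotlib 3.10.9).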

Additional observations from a re-analysis of the deposited data

Results flagged for a closer look

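In each group of 4 libraries, the gap between the highest or lowest library and its nearest neighbour was divided by the range of the group, and ratios above Dixon's 95% critical value were singled out. This held for 9 of 108 sets of values (36 genes in 3 groups), where 5.4 are expected at 1 in 20. Unstimulated library m4 was apart and low for 3 genes: Acat2 at a log2 CPM of 5.07 where the others were at 6.61 to 6.65 (ratio 0.978), Msmo1 at 5.11 against 6.51 to 6.75 (0.856) and Hsd17b7 at 4.33 against 4.81 to 4.90 (0.845). Acat2 was also apart in YFP+ library m3, at 0.42 against 2.05 to 2.22 (0.908). Idi1 was high in unstimulated library m3, at 3.73 against 3.37 to 3.42 (0.877). Elovl5 was high in YFP- library m2, at 5.44 against 4.22 to 4.37 (0.880), and Acly was high in YFP- library f2, at 5.30 against 4.94 to 4.99 (0.856). Fasn was low in YFP+ library f2, at 5.48 against 5.69 to 5.71 (0.906), and Abca1 was low in unstimulated library f2, at -0.32 against 0.06 to 0.13 (0.850).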

How the results depend on the processing

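Of 1614 values recomputed under other settings, 1469 kept their direction and their side of the threshold, 70 fell short of it, 49 newly passed it and 26 changed sign; the cause was not tested. Leaving Fads2 aside, 5 of the 14 genes lower in YFP+ than in YFP- cells, 22 of the 26 lower in YFP- than in unstimulated cells and 27 of the 28 lower in YFP+ than in unstimulated cells were called under every setting that tested them, apart from the stricter thresholds; with both of those added, 5, 20 and 26 were. The count of genes lower in YFP+ than in YFP- cells, 15, was 9 after trimmed-mean scaling, 7 after median centring, 5 at an adjusted p under 0.01 and 8 with a log2 difference of at least 1, and ranged from 5 (without label m2) to 14 when libraries or labels were left out. Abca1 did not pass the filter at log2 CPM above 2 or the filter without label m3 and has no value there. The count of higher genes, 0, was 5 after trimmed-mean scaling, 5 after centring, 1 with the filter at log2 CPM above 2 and 0 to 1 when labels were left out. Against unstimulated cells, the counts of 27 and 29 lower genes stayed between 22 and 33. The count of higher genes there was 0 to 1 when libraries were left out for either stimulated group, 1 with the replicate block for each, and 1 for YFP+ cells after trimmed-mean scaling and after centring, Insig2 in each case. Calls from the fit without unstimulated m4 or YFP- m2 were added after the values were seen.

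The 26 changes of sign were as follows. Between YFP+ and YFP- cells, Sqle was 0.03 after centring and -0.79 to 0.11 with libraries left out, Lss -0.71 to 0.02 with libraries left out, and Cyp51 0.03 after trimmed-mean scaling, 0.14 after centring and -0.43 to 0.10 with libraries left out. In the same settings Insig2 was 0.15, 0.26 and -0.07 to 0.14, and Acly 0.12, 0.23 and -0.10 to 0.11. Against unstimulated cells, YFP- values with libraries left out were -0.20 to 0.03 for Scap, -0.43 to 0.01 for Elovl5 and -0.35 to 0.05 for Abca1. The YFP+ value was -0.01 for Scap without ribosomal RNA features, and for Tmem97 it was 0.01 after trimmed-mean scaling, 0.00 after centring and -0.24 to 0.02 with libraries left out.

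With the replicate block, 19 genes were lower in YFP+ than in YFP- cells, 15 of them shared (added: Fdps, Mvk, Nsdhl and Sc5d). Calls against unstimulated cells were 30 for YFP- (added: Insig2, Sc5d and Sqle) and 32 for YFP+ (added: Cyp51, Insig2 and Msmo1). Deviations of same-labelled libraries correlated between YFP+ and YFP- at 0.054 for f2, 0.35 for m2, 0.374 for m3 and 0.172 for m4 over 12364 features, the last 3 each best with their own label. They correlated at -0.059 to 0.1 between YFP- and unstimulated and at -0.042 to 0.375 between YFP+ and unstimulated. In no comparison were all 4 above 0.1, and the main fit did not pair the libraries. These correlations cannot exclude that same-labelled YFP+ and YFP- libraries came from the same animal, which the labels do not state. Depth limits mainly Abca1 and Fdps, at or below 1.68 CPM in every stimulated library.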
